A study of Arabidopsis thaliana with 9 samples.

Results

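AGO4 RIP-seq in *Arabidopsis* recovered a class of RNAs from the chromosome arms that lay outside Pol V transcripts and gave no read at all in *ago4*. They numbered 1067 of the 3940 AGO4-bound transcripts listed (27.1%). They were chosen by 4 conditions: no overlap of 1 bp or more with an AGO4-bound transcript of the other strand, none with a Pol V transcript on either strand, a start outside the pericentromere, and 0 reads in *ago4*. The pericentromeres were taken as 11.5 to 18 Mb on chromosome 1, 1.0 to 7.3 Mb on chromosome 2, 10.5 to 17.3 Mb on chromosome 3, 1.5 to 6.4 Mb on chromosome 4 and 9.0 to 15.6 Mb on chromosome 5. The *ago4* reads that chose them are a description and not a result. A count of 0 *ago4* reads was common on the list, with 2863 of all 3940 transcripts (72.7%). Among single-strand transcripts on Pol V transcripts it was 89.5%.

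The study sequenced nuclear RNA that had been immunoprecipitated with an antibody against AGO4, from the aerial parts of seedlings about 2.5 weeks old, grown in soil and fixed with 0.5% formaldehyde. The mutant was *ago4-1*, an allele brought into the Col-0 background by introgression, and the control was Col-0 wild type, with 1 library each. All plants were of the Col-0 background, and AGO4 RIP-seq was done in a single repeat, so differences between the genotypes have no replicate check and no test was made. The AGO4 RIP-seq library of *nrpe1* and the Pol V RIP-seq libraries of *ago4* and *idn2* were not analysed here. Pol V transcripts were those listed from 2 repeats of RIP-seq with an antibody against NRPE1, the largest Pol V subunit, in *nrpe1* and Col-0. On the listed AGO4-bound transcripts, *ago4* had 6245 reads and Col-0 had 118313, and these totals cover the list only. Every listed transcript had already been selected on the same libraries for a signal 6-fold higher in Col-0. No listed transcript lay within 2 kb of the *AGO4* gene, so the list holds no direct check of the mutation.

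In RNA-directed DNA methylation, AGO4 carries siRNAs made through Pol IV, RDR2 and DCL3, and is brought to chromatin where Pol V makes noncoding scaffold transcripts. The complex that forms there recruits the methyltransferase DRM2, mostly at transposons and other repeats. Protein-coding genes, the primary transcripts of miRNAs and most spliceosomal snRNAs are instead made by Pol II, which continues past the end of a gene until its RNA is cleaved and the polymerase is released.

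Of all listed transcripts, 37.1% overlapped no annotated gene on either strand, and of arm transcripts outside Pol V transcripts with *ago4* reads, 8.37%. Of the 1067, 251 (23.5%) overlapped none. Sequences are shown for 4 of the 6 with the most deduplicated reads among these. They are also shown for the single transcript with the snRNA promoter element described below. Each of the 4 shown had AATAAA, the letters of the polyadenylation signal, past the listed 3' end. The sequences of the rest of the 6 are not reported here. For the 4, the 150 bases around the 3' end are given, from 50 bases inside the transcript to 100 past it, on the transcript's strand, with AATAAA in capitals. Over all 1067, 18.8% had AATAAA in this window, so the 4 do not stand for the rest. AGO4_Trans2830, AGO4_Trans2828 and AGO4_Trans331 lay away from genes, and AGO4_Trans2286 followed *BGAL2*, a beta-galactosidase gene. The windows were chr4:11973308-11973457 (plus strand), chr4:11871931-11872080 (minus), chr1:9958571-9958720 (minus) and chr3:19587573-19587722 (plus) of TAIR10.1.
AGO4_Trans2830: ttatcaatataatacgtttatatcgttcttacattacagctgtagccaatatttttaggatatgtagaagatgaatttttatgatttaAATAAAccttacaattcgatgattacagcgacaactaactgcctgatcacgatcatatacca
AGO4_Trans2828: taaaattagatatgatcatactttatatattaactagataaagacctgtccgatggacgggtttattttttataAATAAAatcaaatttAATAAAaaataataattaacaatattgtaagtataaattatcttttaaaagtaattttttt
AGO4_Trans331: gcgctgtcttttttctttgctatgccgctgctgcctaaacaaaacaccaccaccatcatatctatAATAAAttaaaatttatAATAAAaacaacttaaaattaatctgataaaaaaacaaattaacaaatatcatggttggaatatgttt
AGO4_Trans2286: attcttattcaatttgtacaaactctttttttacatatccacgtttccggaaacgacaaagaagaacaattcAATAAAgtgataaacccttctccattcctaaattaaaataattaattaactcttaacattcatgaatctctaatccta

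AATAAA began 39 bases past the listed end in AGO4_Trans2830, and 23 bases past it in AGO4_Trans2286. AGO4_Trans2828 had copies at 25 and 40 bases past its end, and AGO4_Trans331 at 16 and 33 bases.

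AGO4_Trans122 is shown as 300 bases around its 5' end, chr1:4842093-4842392 on the plus strand, with the core of the upstream sequence element of plant snRNA genes (CCCACATCG) and a TATA box (TATAAA) in capitals.
AGO4_Trans122: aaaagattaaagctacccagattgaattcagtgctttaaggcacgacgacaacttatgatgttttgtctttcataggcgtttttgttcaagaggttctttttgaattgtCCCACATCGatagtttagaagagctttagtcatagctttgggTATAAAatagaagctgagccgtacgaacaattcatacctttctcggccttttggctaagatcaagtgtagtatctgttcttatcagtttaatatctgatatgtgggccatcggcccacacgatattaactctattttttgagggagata

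The reads were few on each transcript. With 0 reads in *ago4* throughout, Col-0 had between 5 and 74 reads, with a median of 13 (order-statistic 95% interval 12 to 13). Among deduplicated reads, which count identical read pairs once, the median was 6 and the highest 33, and 337 of the transcripts stood at the lowest value of 5. That value was also the lowest over the whole list, as a floor of the calling would give. Similar arm transcripts with *ago4* reads had at least 7 deduplicated Col-0 reads, as the 6-fold filter would give. The 337 transcripts with 5 reads and the 216 with 6 lay below that value. Their 0 reads in *ago4* may therefore be set by the filter, which was not tested. With all reads counted, the middle 50% had 10 to 17.5 reads. These transcripts held 15868 Col-0 reads, 13.4% of those on the list. A count of 0 allows up to 3 reads, so the fold was set against 3 reads. At that floor 267 transcripts (25.0%) were at least 6-fold lower in *ago4*, while the share over all listed transcripts was 44.4%. The count was 25 with deduplicated reads and 1063 with a floor of 1 read. It rests on the *ago4* reads that chose the transcripts and on reads without library totals, so nothing is read from it and no fold is given for single transcripts.

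The transcripts were short. Their median length was 437 bp (interval 423 to 450), with a range of 82 to 2188 bp, and 513 bp over all listed transcripts. Col-0 read density had a median of 2.92 reads per 100 bp, and 3.14 over the list. Reads followed length (Spearman's rho = 0.48 over 1067 transcripts, a description, since both come from the same calls). Transcripts of the arms that were outside Pol V transcripts but had *ago4* reads, the most similar class, numbered 765. Their median was 851 bp, 34 Col-0 reads and 3.99 reads per 100 bp. That gap is set in part by selection, since a transcript with an *ago4* read needed more Col-0 reads to pass the 6-fold filter.

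**Figure D1:**
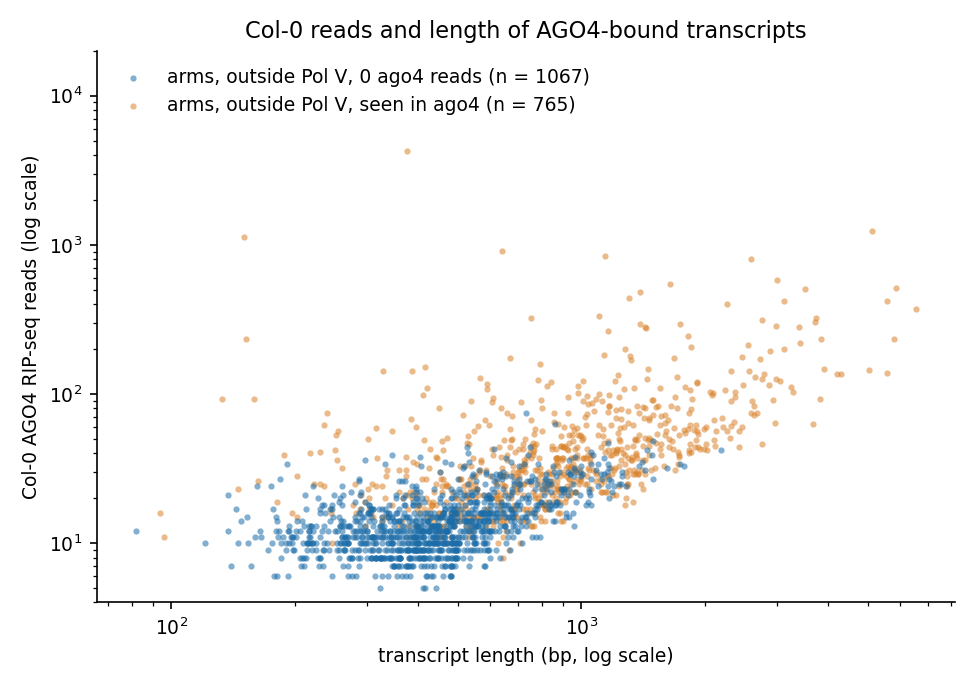
Col-0 AGO4 RIP-seq reads (log axis) against transcript length in bp (log axis), with 1 point per transcript, for arm transcripts outside Pol V transcripts with 0 *ago4* reads (blue) and with *ago4* reads (orange). The blue points lie between 5 and 74 reads and between 82 and 2188 bp, at the low end of both axes.

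At the edges of the rule, 200 otherwise similar arm transcripts had 1 read in *ago4*, with a median of 20.5 Col-0 reads (8 to 126). The nearest to a Pol V transcript inside the rule were AGO4_Trans697, AGO4_Trans723 and AGO4_Trans3653, at 7, 71 and 103 bp. Just outside it, AGO4_Trans819, AGO4_Trans2995 and AGO4_Trans836 overlapped Pol V transcripts by 32, 54 and 102 bp. They had 0 *ago4* reads each and 13, 58 and 11 Col-0 reads. AGO4_Trans2476 was the closest member to a pericentromere limit, at 3109 bp, and AGO4_Trans2639 lay 16133 bp on the other side of one.

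The number per Mb of arm was similar on the 5 chromosomes. Chromosomes 1 to 5 carried 294, 155, 207, 175 and 236 of them, or 11.6 to 12.8 per Mb of arm. Per 1000 protein-coding genes of the arms there were between 42.1 and 47.1. The plus strand held 540 and the minus strand 527. Neighbours were rare: 45 transcripts (4.22%) had another AGO4-bound transcript of the same strand within 1000 bp, against 6.04% over the list.

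Most of the transcripts sat at the 3' ends of protein-coding genes, in the sense of the gene. Of the 1067, 381 (35.7%) started inside a gene of the same strand and ran over its 3' end, and 303 (28.4%) started within 500 bp past such an end. Together these were 684 transcripts, or 64.1% (Wilson 95% interval 61.2 to 66.9, counting error only), and 43.5% over all listed transcripts. Among arm transcripts with *ago4* reads the share was 80.4% (615 of 765), and among single-strand transcripts on Pol V transcripts it was 17.5% (201 of 1150). Pericentromeric transcripts outside Pol V transcripts had 42.6%, and those that overlapped on both strands 14.8%. No test was made between the classes, since transcripts of 1 library are not replicates. A place at a 3' end was tried before the 5' end, divergent and antisense places, which favours it. How much of the arm sequence outside genes lies at such ends was not measured, so the share is not called particular to these transcripts.

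**Figure D2:**
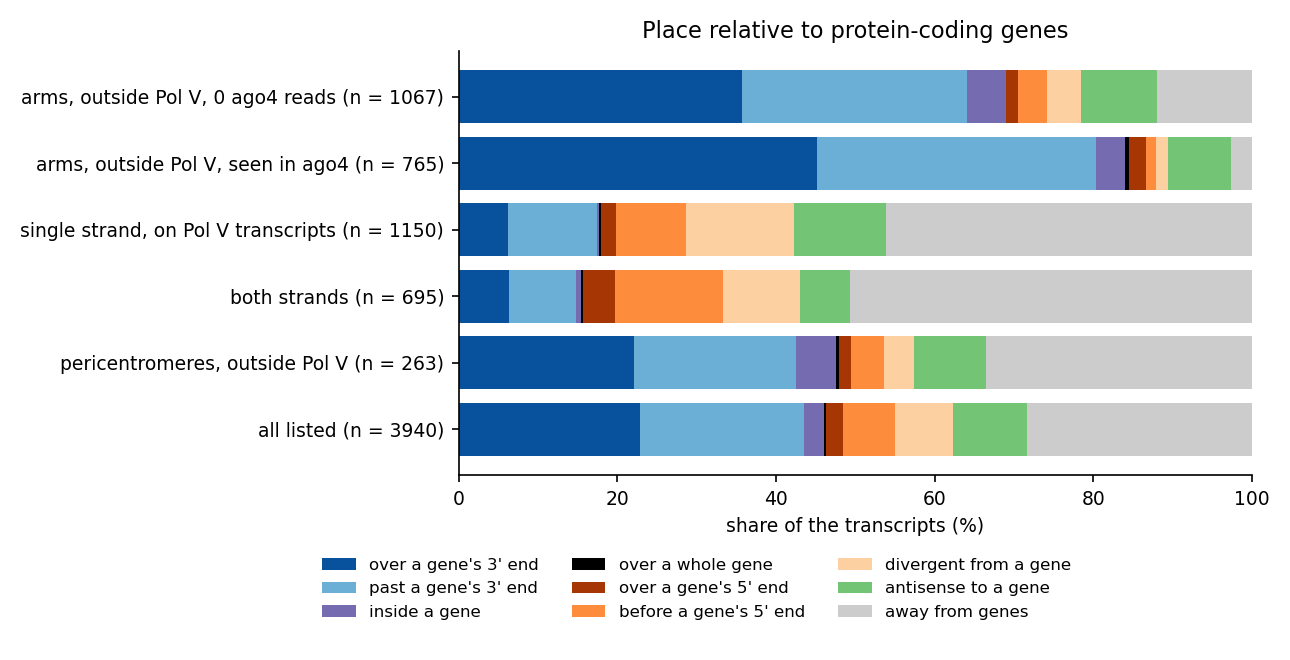
Share of transcripts (%) by their place relative to protein-coding genes, with 1 bar per class of AGO4-bound transcripts and the class size in brackets. The dark and light blue segments, over and past a gene's 3' end, add up to 64.1% in the top bar, 80.4% in the second and 17.5% in the third.

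The start of the transcript was close to the annotated end of the gene, a place that the calling sets in part. Transcripts were called from reads outside TAIR10 genes, so RNA that runs off a masked gene is listed from the gene's end on, and the distances describe the list. Over the 684, the 5' end lay at a median of 11 bp before the gene's end, and the middle 50% between 94.2 bp before and 24 bp past it. In 315 of them (46.1%) it lay within 50 bp on either side. Of the arm transcripts with *ago4* reads that were placed at gene ends, 49.9% did. Transcripts that ran over a gene's end shared a median of 80 bp with the gene, and 1 of the 381 touched coding sequence. This shared stretch depends on where the masked annotation ends a gene, and the gene ends used here are those of RefSeq. From the gene's end the transcripts reached a median of 428 bp downstream (middle 50% 283 to 609 bp), against 786 bp in arm transcripts with *ago4* reads. The farthest end was 2257 bp past the gene.

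The 684 transcripts lay at 684 genes, or 2.84% of the 24052 protein-coding genes of the arms. Arm transcripts with *ago4* reads lay at 615 genes (2.56%), and 1 gene was in both sets (0.146% of the first and 0.163% of the second). Calls joined over gaps of up to 200 bp leave little room for more than 1 transcript of a strand at a gene's end, so neither the single transcript per gene nor the small overlap is read as a result. The genes had a median length of 2619 bp, against 2292 bp for the genes next to arm transcripts with *ago4* reads and 2118 bp for all protein-coding genes of the arms. The next gene downstream faced the first from the other strand in 326 cases (47.7%) and followed it on the same strand in 358 (52.3%). Convergent neighbours made up 59.7% at arm transcripts with *ago4* reads and 47.3% over all protein-coding genes of the arms. The median gap to the next gene was 340 bp, and 355 bp over all arm genes.

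Places around 3' ends were described for each strand of the gene. At 120 bp past a 3' end of a same-strand gene, 55.8% of the transcripts covered the position, the highest value within 1500 bp on either side. The middle of the transcript lay within 500 bp past a gene's 3' end for 584 (54.7%) when the gene was on the same strand, and for 75 (7.03%) when it was on the opposite one. Arm transcripts with *ago4* reads had 48.9% and 6.27%. On the opposite strand the coverage peaked inside the gene, at 220 bp before its 3' end, with 22.1%. The peaks of arm transcripts with *ago4* reads were 77.4% at 120 bp past a same-strand end and 41.0% at 240 bp before an opposite-strand end. Overlap with a protein-coding gene of the opposite strand was found for 399 transcripts (37.4%), against 54.0% in arm transcripts with *ago4* reads, 17.4% on Pol V transcripts and 29.8% over the list. Coding sequence of the opposite strand was covered by 326 (30.6%), while coding sequence of the same strand was covered by 13 (1.22%, and 1.24% over the list). Reads in genes were left out before the calling, so a low coverage inside same-strand genes was set in advance and is no result. The difference between the strands rests in part on this masking and is not read as a result.

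**Figure D3:**
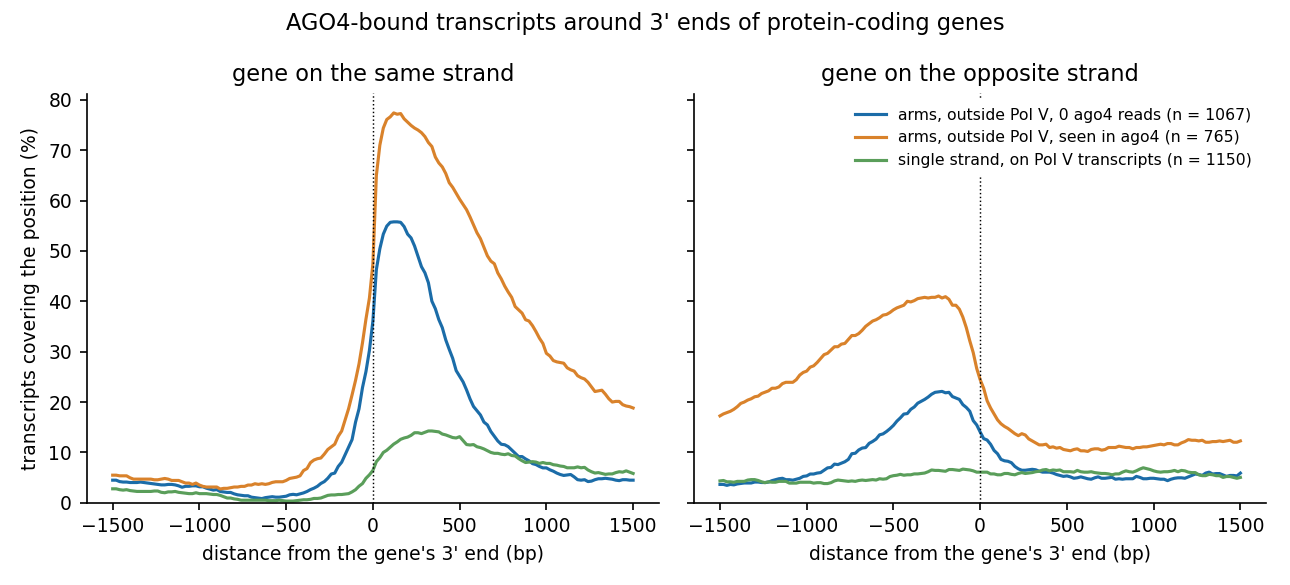
Share of transcripts (%) that cover each position from 1500 bp before to 1500 bp past the 3' end of a protein-coding gene on the same strand (left) and on the opposite strand (right), for 3 classes of AGO4-bound transcripts. The blue line of arm transcripts with 0 *ago4* reads peaks at 55.8% at 120 bp past the end on the same strand and at 22.1% at 220 bp before the end on the opposite strand.

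The place at gene ends was found at every read depth. The share was 56.4% among the 337 transcripts with 5 deduplicated reads and 61.1% among the 216 with 6. With 7 to 8 reads it was 66.0% (157 of 238), against 73.6% (67 of 91) in arm transcripts with *ago4* reads of the same depth, and the Wilson intervals overlapped (59.7 to 71.7 and 63.7 to 81.6). With 9 to 11 reads the shares were 72.7% (104 of 143) and 80.3% (98 of 122), with 12 to 15 reads 75.6% (59 of 78) and 76.0% (92 of 121), and with 16 or more 76.4% (42 of 55) and 83.1% (358 of 431). The intervals overlapped in these bins too, while the share was the lower one among transcripts with 0 *ago4* reads in all 4. Among single-strand transcripts on Pol V transcripts, the share was 8.41% at 5 reads, 21.7% at 12 to 15 reads and 43.8% (49 of 112) at 16 or more. By length, it was 55.1% of the 107 transcripts under 250 bp, against 60.9% of 23 with *ago4* reads. From 250 to under 500 bp it was 60.6% (356 of 587, interval 56.6 to 64.5), against 78.5% (95 of 121, 70.4 to 84.9) with *ago4* reads. From 500 to under 750 bp it was 73.9% of 253, against 84.1% of 170, and at 750 bp or more 68.3% (82 of 120, 59.6 to 76.0), against 80.5% (363 of 451, 76.6 to 83.9). In each length bin the share was lower without *ago4* reads. The intervals were separate from 250 to under 500 bp and at 750 bp or more, but they cover counting error only. Transcripts of the same library are not replicates, and the *ago4* reads themselves set the classes, so no difference between the classes is called. At the same length the transcripts without *ago4* reads also had fewer Col-0 reads, with medians of 11, against 20, from 250 to under 500 bp. The part of depth in the lower shares was not tested. Median Col-0 reads and length were 14 reads and 454 bp at gene ends, close to the 13 reads and 437 bp of all 1067.

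**Figure D4:**
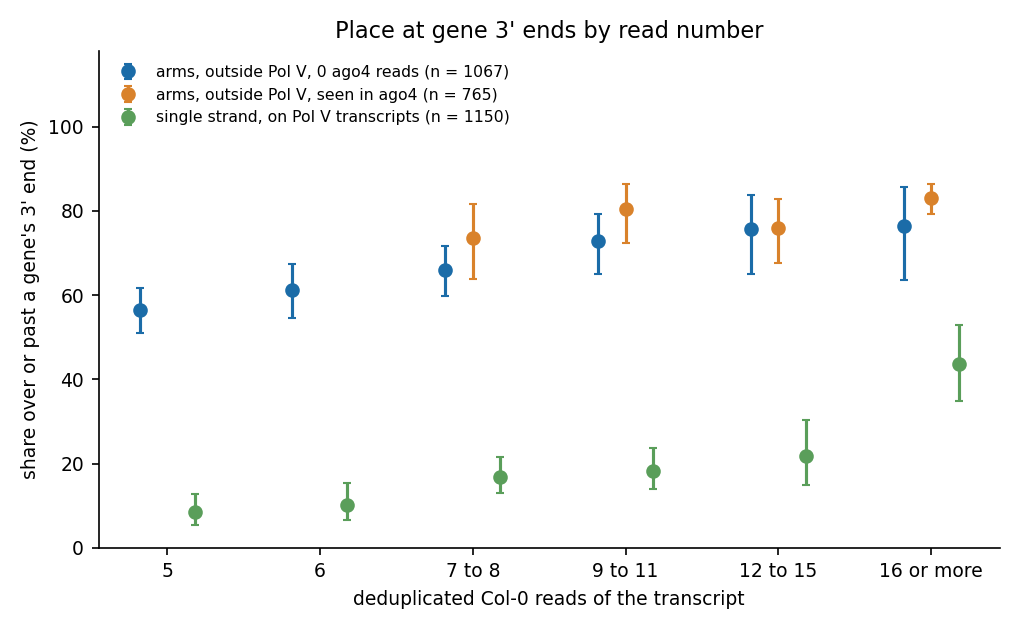
Share of transcripts over or past a gene's 3' end (%), by deduplicated Col-0 reads of the transcript, for 3 classes. Points are shares and bars Wilson 95% intervals. Blue (0 *ago4* reads) runs between 56.4% and 76.4% and lies above green (on Pol V transcripts) in every bin. Orange (with *ago4* reads), which has no transcript under 7 reads, lies above blue in its 4 bins, by the least at 12 to 15 reads (76.0% against 75.6%).

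The 10 transcripts with the most deduplicated reads were mostly of this kind, 9 of 10 at the 3' end of a same-strand gene. AGO4_Trans1731 (chr3:2604547-2605410, minus strand) had 0 reads in *ago4*, against 63 reads, 33 of them deduplicated, in Col-0. It started 24 bp past *AAC1* (AT3G08580), which encodes an ADP/ATP carrier of the inner mitochondrial membrane. AGO4_Trans1318 (chr2:8940493-8942681, minus), the longest of all at 2188 bp, had 0 reads in *ago4* and 42 in Col-0. It started 68 bp past AT2G20760, a gene for clathrin light chain, a coat protein of transport vesicles, and ran into the convergent gene AT2G20750.

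Regulatory genes were among them. AGO4_Trans2737, with 0 reads in *ago4* and 44 in Col-0, ran over the last 112 bp of *HB-2*, a homeobox gene of the shade response. AGO4_Trans807, with 0 reads in *ago4* and 40 in Col-0, started 11 bp past *FKF1*, an F-box gene of photoperiodic flowering. AGO4_Trans105 had 0 reads in *ago4* and 43 in Col-0, and ran over the last 65 bp of *RBP45B*, which encodes an RNA-binding protein. AGO4_Trans1979 (0 reads in *ago4*, 48 in Col-0) ran over the last 18 bp of the uncharacterized AT3G26950. AGO4_Trans3139 (0 reads in *ago4*, 39 in Col-0) followed the centromere protein O gene AT5G10710. AGO4_Trans2789 (0 reads in *ago4*, 34 in Col-0) started at the last base of *ARA7*, which encodes a small GTPase of endosomes.

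The exception had the most reads. AGO4_Trans2839 (chr4:12157235-12157970, plus strand) had 0 reads in *ago4*, against 74 reads, 30 of them deduplicated, in Col-0. It started 353 bp upstream of *CRK14* (AT4G23220), a gene for a cysteine-rich receptor-like kinase on the other strand, pointed away from it, and ran antisense into AT4G23230. The reads of these paralogous kinase genes may be shared between near-identical copies, since reads with several places were counted at a single one.

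**Figure D5:**
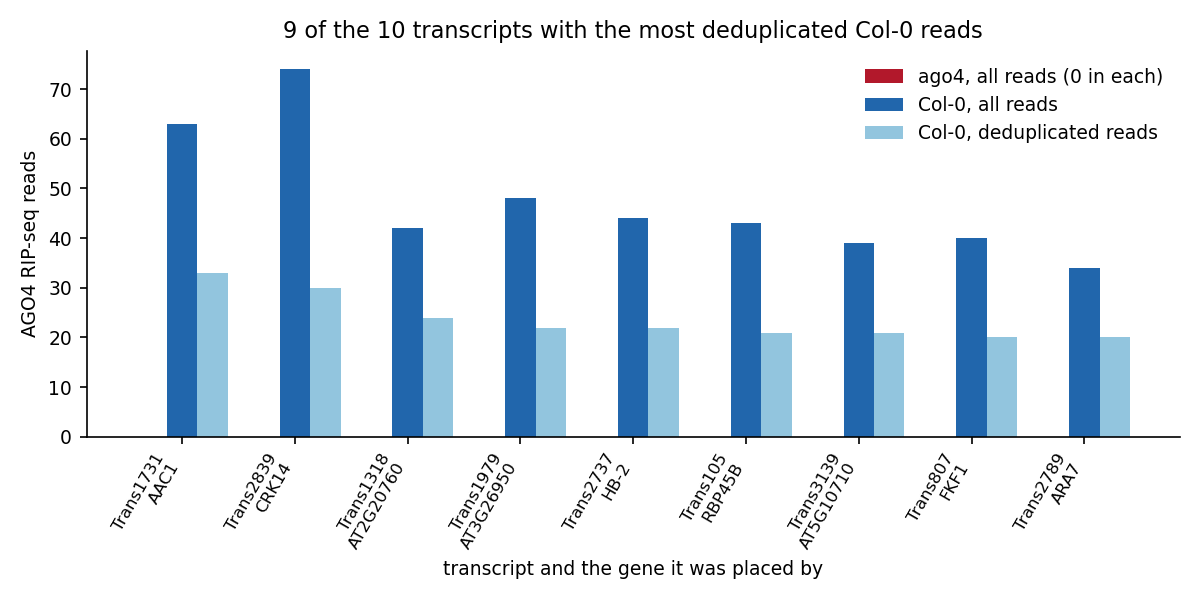
AGO4 RIP-seq reads of 9 of the 10 transcripts with the most deduplicated Col-0 reads, in *ago4* (0 in each, so no bar is visible), in Col-0 (dark blue) and in Col-0 after deduplication (light blue). Labels give the transcript and the gene it was placed by. Col-0 reads lie between 34 and 74.

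Length and density brought in other transcripts. After AGO4_Trans1318, the longest were AGO4_Trans267 (1783 bp, 0 reads in *ago4*, 33 in Col-0), past a GDSL-like lipase gene, and AGO4_Trans3899 (1739 bp, 0 reads in *ago4*, 34 in Col-0), past *DPE1*, a gene of starch breakdown in plastids. AGO4_Trans2828 followed with 1620 bp and 32 Col-0 reads, and AGO4_Trans1979 with 1499 bp. The densest of at least 200 bp was AGO4_Trans1728, with 0 reads in *ago4* and 36 reads on 296 bp in Col-0, or 12.2 reads per 100 bp, over the last 103 bp of *OBE1*, a gene for a PHD finger protein of meristems. AGO4_Trans1749 had 11.3 reads per 100 bp at the protein kinase gene AT3G09830, and AGO4_Trans1867 had 10.2 at *UBC19*, which encodes a ubiquitin-conjugating enzyme. AGO4_Trans1288, away from genes, had 10.8, and AGO4_Trans2839 had 10.1.

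The remaining 383 transcripts had several places, and their reads were similar. Away from genes lay 128, against 28.4% over the list and 46.1% of the single-strand transcripts on Pol V transcripts. Antisense to a gene, with no gene end of their own strand nearby, were 102 (9.56%, against 9.26% over the list). Inside a same-strand gene were 53 (4.97%), and divergent from the start of an opposite-strand gene 46 (4.31%). Before a gene's 5' end were 38 (3.56%), and over a 5' end 16 (1.50%). Over the list these shares were 2.56%, 7.39%, 6.47% and 2.18%, and in arm transcripts with *ago4* reads 3.66%, 1.44%, 1.31% and 2.09%. Median Col-0 reads lay between 11 and 12.5 in each of these groups. Of the 53 inside a gene, 6 touched coding sequence. Reads in TAIR10 genes were left out before the calling, so this place depends on the annotation used and is not read as a result. AGO4_Trans1771, antisense to the lysyl-tRNA synthetase gene *ATKRS-1*, had 0 reads in *ago4* and 35 in Col-0. AGO4_Trans2830, away from genes, had 0 reads in *ago4* and 37 in Col-0. A start within 500 bp of the start of an opposite-strand gene was found for 88 of the 1067 (8.25%). The share was 3.92% in arm transcripts with *ago4* reads, 13.0% over the list and 21.7% on Pol V transcripts.

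Genes for noncoding RNA held few of the transcripts. On the same strand, 28 (2.62%) overlapped such a gene, against 4.82% of the list, 24 of them a long noncoding RNA gene. The share was 8.50% in arm transcripts with *ago4* reads and 3.30% in single-strand transcripts on Pol V transcripts. Arm transcripts with *ago4* reads were longer (median 851 bp, against 437 bp), and the part of length was not tested. Of the 28, the 12 with the most deduplicated reads had 0 reads each in *ago4* and 16 to 34 in Col-0. AGO4_Trans2768 (0 reads in *ago4*, 34 in Col-0) lay over AT4G06795 and AGO4_Trans281 (0 reads in *ago4*, 33 in Col-0) over AT1G05927. AGO4_Trans3847, AGO4_Trans1780, AGO4_Trans48, AGO4_Trans2776, AGO4_Trans116, AGO4_Trans3909, AGO4_Trans896 and AGO4_Trans18 also overlapped long noncoding RNA genes. AGO4_Trans2328 overlapped an RNA gene of no named kind before *PROT2*, which encodes a proline transporter.

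The one snRNA gene among them was *U2.14* (AT1G05057, chr1:4842275-4842469), a gene for the U2 snRNA of the spliceosome. AGO4_Trans122 (chr1:4842343-4842527, plus strand) covered its last 127 bp and ran 58 bp past its end. It had 0 reads in *ago4*, against 27 reads, 13 of them deduplicated, in Col-0. In the sequence shown above, CCCACATCG began 73 bases and TATAAA 31 bases before the first base of the gene. The annotation has 23 genes with a U2 symbol, and reads were placed at a single site where several matched, so these reads may belong to other copies.

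Near small RNA genes, 24 transcripts (2.25%, against 1.95% of the list) lay within 500 bp of a tRNA, snRNA, snoRNA or miRNA gene, 10 of them on its strand. AGO4_Trans880 had 0 reads in *ago4*, against 38 reads, 16 of them deduplicated, in Col-0. It ended 42 bp before *MIR159a*, the gene of a miRNA that represses MYB transcription factors, on the same strand. AGO4_Trans1388 (0 reads in *ago4*, 19 in Col-0) ended at the base before *MIR831*, on its strand, after running over the end of *ASG1*. AGO4_Trans822 (0 reads in *ago4*, 14 in Col-0) crossed *MIR395f* on the opposite strand. AGO4_Trans1787, 433 bp from *MIR169a*, had the lowest value, with 0 reads in *ago4* and 5 in Col-0.

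Pol V transcripts were distant from most of the transcripts. The median distance to the nearest on either strand was 17960 bp (interval 16084 to 19626), and 708 (66.4%) lay more than 10000 bp away. In arm transcripts with *ago4* reads, which met the same condition, the median was 21704 bp. How far Pol V transcripts lie from other places in the arms was not measured, so the distance is not called particular to these transcripts. Within 1000 bp of a Pol V transcript were 44 transcripts, of which 16 (36.4%) sat at a gene's 3' end, while beyond 10000 bp the share was 65.4%. Median Col-0 reads were 13 in both. The nearest, AGO4_Trans697 (0 reads in *ago4*, 10 in Col-0), lay 7 bp before PVTrans842 on the same strand, which had 0 and 2 Pol V RIP-seq reads in *nrpe1*, against 24 and 44 in Col-0. AGO4_Trans723 (0 reads in *ago4*, 13 in Col-0) lay 71 bp from PVTrans873, which had 0 and 0 reads in *nrpe1*, against 53 and 23 in Col-0. AGO4_Trans3653 (0 reads in *ago4*, 7 in Col-0) lay 103 bp from PVTrans4287, which had 6 and 1 reads in *nrpe1*, against 68 and 13 in Col-0. Both Pol V transcripts were on the other strand, and both AGO4-bound transcripts ran antisense to a gene, *MEE9* and AT5G44574.

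Of 26 genes of the RNA-directed DNA methylation pathway and of DNA methylation, 4 (15.4%) had such a transcript within 2 kb, all with few reads. Among all protein-coding genes the share was 7.85% (2153 of 27444). In the arms alone, where all the transcripts lay, it was 17.4% of 23 genes of the list and 8.95% of 24052 protein-coding genes. With 4 genes, nothing is called particular to the list. AGO4_Trans821 (0 reads in *ago4*, 11 in Col-0) was antisense to *CMT3*, the gene of a chromomethylase. AGO4_Trans3079 (0 reads in *ago4*, 10 in Col-0) started 238 bp past *KTF1*, which encodes an AGO4-binding protein of the pathway. AGO4_Trans2228 (0 reads in *ago4*, 8 in Col-0) followed AT3G48660 and lay within 2 kb of *IDN2*. AGO4_Trans2237 (0 reads in *ago4*, 11 in Col-0) ran over the end of AT3G49220 and lay within 2 kb of *DMS3*. None was within 2 kb of *AGO4*, *NRPE1*, *RDR2*, *DCL3* or *DRM2*.

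The base composition and the searched motifs were close to those of the list. Median GC content was 34.9% (interval 34.5 to 35.3), and 35.2% over the list. In the 300 bp from 250 bp before to 50 bp after the 5' end, searched on both strands, TATAAA was found in 457 transcripts (42.8%), 45.5% of the list and 52.1% of the same windows at 27444 protein-coding genes. Site II (TGGGCC), an element of many housekeeping promoters, was found in 4.78%, 5.79% and 15.5% of the same sets. The telo-box (AAACCCTA) was found in 2.44%, 3.53% and 6.22%. The Pol III promoter elements were rare, with the A box (GGCNNAGTG) in 8 transcripts (0.750%, against 0.736% of the list and 0.969% of genes) and the B box (GTTCGANNC) in 13 (1.22%, 1.68% and 2.16%). CCCACATCG was found in AGO4_Trans122 alone, and in 6 of the list (0.152%) and 0.168% of genes. AATAAA, on the transcript's strand in the 150 bp window at the 3' end, was found in 201 (18.8%), 20.2% of the list and 22.0% of genes. It was most frequent in transcripts before a gene's 5' end (15 of 38, 39.5%) and away from genes (36 of 128, 28.1%), and was found in 16.5% and 16.8% of those over and past a gene's 3' end. Median GC content was 31.6% before a gene's 5' end and 31.5% away from genes, against 34.5% over and 36.4% past a gene's 3' end. The part of base composition in these shares was not tested. A match is a run of letters and was not tested as a site.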

How the data were processed

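The authors immunoprecipitated RNA with anti-AGO4, made stranded libraries without mRNA or rRNA depletion, and mapped 50 bp paired reads to TAIR10 with SOAPsplice, placing reads with several matches once. They called transcripts from unique reads outside TAIR10 genes, joined over gaps of up to 200 bp and filtered on a density of 1 read per 100 bp, and kept those with 4 reads in Col-0 and 6-fold more than in *ago4*. Pol V transcripts were called alike from 2 repeats, at 4-fold over *nrpe1* and with a negative binomial test, whose p-values and q-values stand in the list and were not used. The deposited values are raw counts of reads per transcript and library, without normalization, and the number of per-library columns not used was 0. Libraries were compared on their reads, since the totals of whole libraries were not used here.

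Classes, overlaps and distances were computed with Python 3.11.15, pandas 2.3.3, numpy 2.4.6, scipy 1.17.1 and matplotlib 3.10.9, and the interval code was tested on simulated data. Deposited lengths are end minus start, while starts and ends were read as 1-based positions that both belong to the transcript, because starts most often lay on the base after a gene's end. Genes and sequence are those of RefSeq TAIR10.1, whose gene ends can differ from the annotation the authors masked. Each transcript got 1 place, in the order inside, whole gene, 3' end, 5' end, divergent and antisense, with a reach of 500 bp. Intervals and the floor of 3 reads cover counting error only.

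Members and lists were chosen with earlier results of these data known. Named transcripts were the 10 with the most deduplicated reads, the 5 longest, the 5 densest of at least 200 bp, the 3 nearest a Pol V transcript, up to 12 over a noncoding RNA gene, and those within 2 kb of 26 genes of DNA methylation. Sequences followed deduplicated reads outside genes and the snRNA element. One named transcript and 2 sequences that the rules select are not reported here. Transcripts that lead a place, edge the rule or neighbour a small RNA gene were picked after their values were seen. With 1 library per genotype no test was made. The alternatives changed the reads counted, the floor, the filter on low counts, distances and limits.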

Additional observations from a re-analysis of the deposited data

How the results depend on the processing

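The number of 1067 transcripts stayed within 1.5 times under the 7 alternatives, between 949 with the pericentromere limits moved outward by 1 Mb and 1162 with them moved inward. With deduplicated reads, the median was 6 Col-0 reads and 1.50 reads per 100 bp, and 25 transcripts were at least 6-fold lower in *ago4*, against 1063 with a floor of 1 read. Among transcripts with at least 10 deduplicated reads, the medians were 24.5 reads, 708 bp and 3.42 reads per 100 bp, and 53.1% overlapped a gene on the same strand, against 48.2% of all and 15.8% where 50% of the transcript had to overlap. A start past a same-strand gene's end was found for 25.1% within 200 bp, 29.1% within 500 bp and 32.9% within 1000 bp. A start near that of an opposite-strand gene was found for 2.91% within 200 bp and 16.7% within 1000 bp. The median distance to a Pol V transcript of the same strand was 28213 bp, while GC content with 250 bp on each side moved to 34.8%. The cause of these shifts was not tested. No paired analysis was possible because the AGO4 RIP-seq has 1 library per genotype and no test was made.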
